A study of Sus scrofa with 92 samples.

Results

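Marker genes of Kupffer cells, the resident macrophages of the liver, were followed in RNA-seq libraries of liver biopsies from pigs in hemorrhagic shock with polytrauma. The 8 genes were CD163, MARCO, CD68, CSF1R, C1QA, C1QB, CD5L and VSIG4, and members were the rows of the count table whose pig Ensembl identifier carried one of these symbols. Of the 25322 rows, 4 were members: MARCO (ENSSSCG00000015716), CD68 (ENSSSCG00000017956), CSF1R (ENSSSCG00000014441) and C1QA (ENSSSCG00000003524). No row was matched to CD163, C1QB, CD5L or VSIG4, which were not analysed here. All 4 rows passed the filter on low values, for which CPM (counts scaled to a common library size) had to sum to 10 or more across the fitted libraries.

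The animals were 23 male Yorkshire-Landrace pigs, every one fasted overnight, anesthetized and splenectomized, then given a blunt chest injury, bled into shock, given a liver crush injury and resuscitated with fluid and their shed blood. Fasted (FS, 18) animals received nothing more, and carbohydrate prefed (CPF, 5) animals received sugar syrup before induction. Biopsies came from the periphery of the liver at Baseline (B), after instrumentation, and at 2, 8 and 20 hours of full resuscitation (FR2, FR8, FR20). The labels mark 5 animals as Died (FS 2, 16 and 20, CPF 7 and 8) and the others as Lived. No animal was left uninjured or without anesthesia and splenectomy, so a change over time is the change under the whole procedure.

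Kupffer cells line the liver sinusoids and clear bacteria, cell debris and spent red cells from portal blood. MARCO is a scavenger receptor that binds bacteria and modified lipoproteins. CSF1R is the receptor for the growth factors CSF1 and IL34, on which resident macrophages depend. C1QA is a chain of C1q, the part of the classical complement pathway that recognizes its targets and is made largely by tissue macrophages, and CD68 is a glycoprotein of late endosomes and lysosomes that monocytes and other phagocytes also carry.

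Of 92 libraries, 88 were used, with 6877117 to 16613261 counts each (median 12071957). The FR8 library of CPF animal 3 held 4388 counts, with 0 for every member. The libraries labelled Baseline of FS animals 17, 19 and 21 held between 4 and 899 albumin counts each, and in them C1QA was at 15.3, 29.2 and 19.5 CPM and MARCO at 1.067, 1.602 and 1.998 CPM, so these were left out as well. In the other libraries the labelled tissue carried its marker, with a lowest albumin (ALB) level of 9521 CPM. Over 500 genes that hold no member and no listed marker, 70 of the 88 libraries were closest to the mean profile of their own timepoint. All 9 other libraries of FS animals 17, 19 and 21 were closest to another timepoint, those labelled FR2 to FR8, those labelled FR8 to B and those labelled FR20 to FR2, as were 9 of the 79 libraries of the other 20 animals. No library was relabelled. For the main changes of the members, values from all 88 libraries are followed by those from the 70 closest to their own timepoint (called matched libraries), a choice made after seeing the data. Matched libraries were kept for their likeness to the mean profile of a timepoint, and more of all genes passed in them at each change from Baseline. Among 4897 well-covered genes, 480 and 477 were listed at 0 in the FR2 and FR8 libraries of FS animal 11 and at most 1 in any other, and no member was among them.

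MARCO, the scavenger receptor, fell in FS animals at each resuscitation timepoint and was the most variable member, with a 47.2-fold span between its lowest and highest library (2.22 and 104.9 CPM, from 35 to 1118 counts). CPM here were scaled by the trimmed mean of M-values (TMM). At Baseline the lowest, median and highest FS levels were 6.76, 25.0 and 66.7 CPM (n = 15), and at FR2 they were 7.34, 13.2 and 45.7 CPM (n = 18). At FR8 they were 2.83, 8.88 and 32.2 CPM (n = 18), and at FR20 2.56, 9.02 and 50.8 CPM (n = 18). The ranges of all timepoints overlapped, since animals differed widely at Baseline, while within animals MARCO was lower than its own Baseline in 14 of 15 at FR2, in 14 of 15 at FR8 and in 14 of 15 at FR20. The exceptions were animal 4 at FR2 and FR20 and animal 10 at FR8. The Baseline library of animal 4 counted as matched, but its r with the Baseline profile was only 0.10, and 0.02 with FR20. In the other matched FS Baseline libraries r with the Baseline profile was 0.75 to 0.95. By profile, the Baseline, FR2 and FR8 libraries of animal 10 were closest to FR8, FR20 and FR2. The FR8 and FR20 libraries of animal 9 were closest to FR20 and FR8, and the FR20 library of animal 20 to FR8. The fitted log2 fold change was −0.73 at FR2vB (SE 0.23, adjusted p = 0.00767), −1.33 at FR8vB (SE 0.24, adjusted p = 1.36e-05) and −1.30 at FR20vB (SE 0.24, adjusted p = 2.45e-05), by the quasi-likelihood test of edgeR, Benjamini-Hochberg adjusted over 13667 genes, in a fit with a term for each animal. These are 1.66-, 2.51- and 2.46-fold lower levels. In bulk tissue, fewer cells of a type and less RNA per cell cannot be told apart.

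The libraries labelled FR8 and FR20 of FS animals 17, 19 and 21 were among the highest for MARCO at those timepoints. The library labelled FR2 held 8.26 CPM in animal 17, 11.1 CPM in animal 19 and 9.92 CPM in animal 21. The library labelled FR8 held 32.2, 29.9 and 25.4 CPM in the same order, and the library labelled FR20 31.3, 25.0 and 26.7 CPM. From FR2 to FR8, MARCO was therefore higher in 3 of these 3 animals and lower in 14 of the 15 with a Baseline library. The fitted FR8vFR2 change over all FS animals was −0.60 (SE 0.23, adjusted p = 0.0396, edgeR quasi-likelihood test, Benjamini-Hochberg adjusted), 28.4% of the genes tested passing in that comparison. It passed in 11 of 23 fits that left out 1 animal each. With the animals that have a Baseline library alone it was −0.93 (adjusted p = 0.000308), and in matched libraries −1.06 (adjusted p = 2.53e-05). In the same selections the FR8vB change of MARCO was −1.46 (adjusted p = 9.54e-08) and −1.61 (adjusted p = 5.35e-09). In matched libraries the FR2vB change was −0.55 (adjusted p = 0.0163) and the FR20vB change −1.57 (adjusted p = 7.79e-08). From FR8 to FR20 the fitted change was 0.03 (adjusted p = 0.961), up in 8 and down in 10 of 18 animals.

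**Figure D1:**
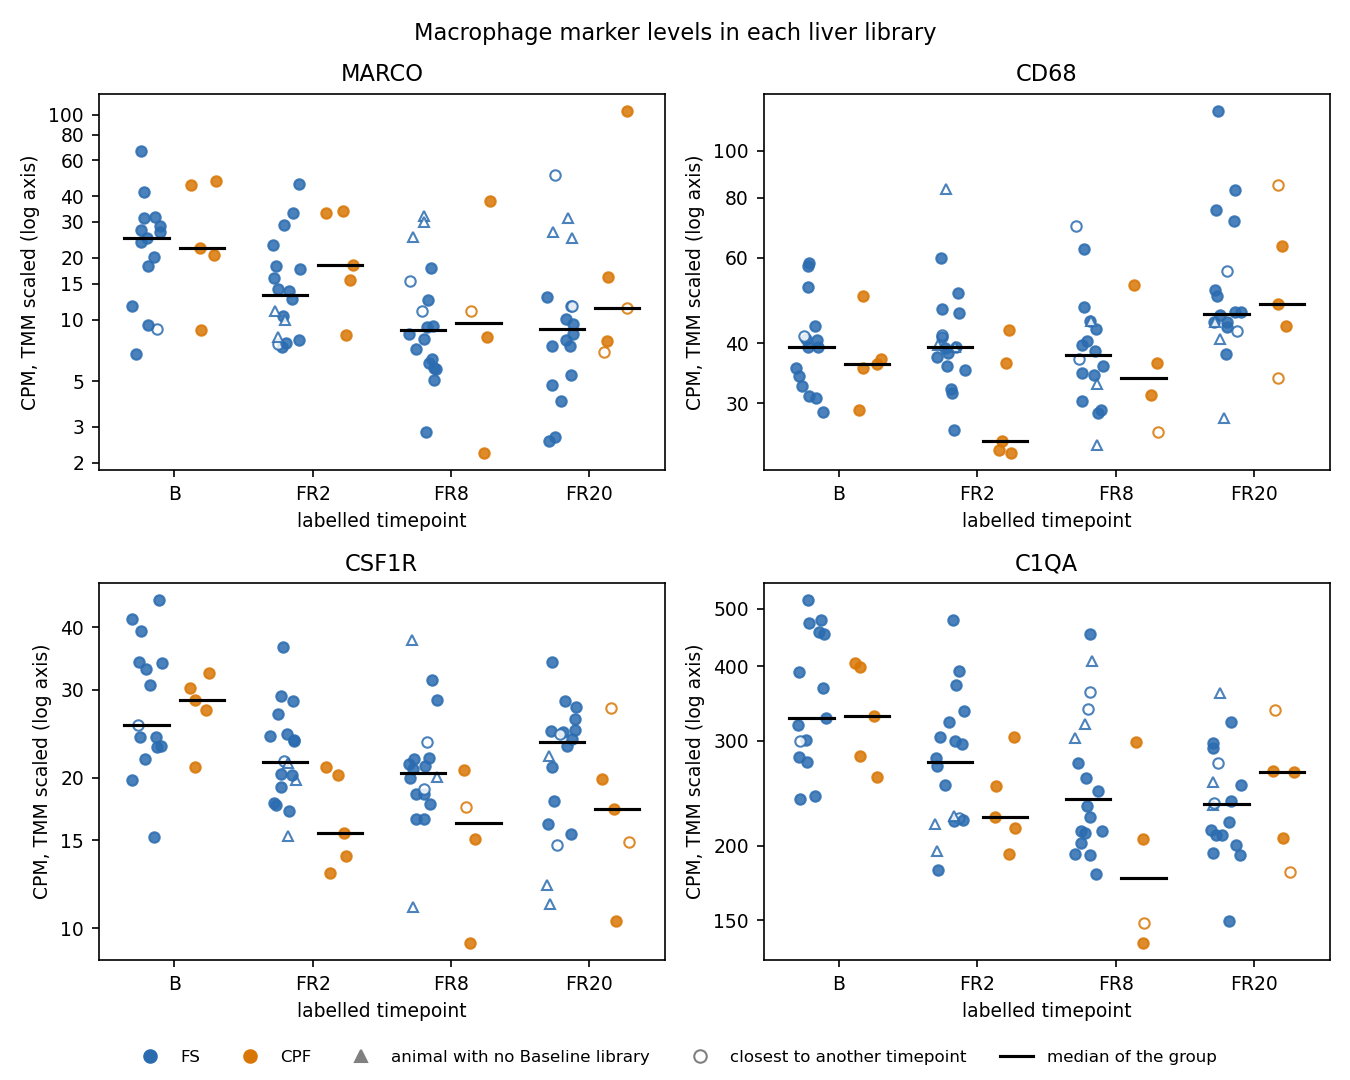
Level of each member in every library used, in CPM after TMM scaling on a log axis, by labelled timepoint and fed group, with a bar at each group median, triangles for FS animals 17, 19 and 21 and open symbols for libraries closest to another timepoint. MARCO medians in FS animals run from 25.0 CPM at Baseline to 8.88 at FR8 and 9.02 at FR20 with ranges that overlap, whereas CD68 medians stay between 37.8 and 46.0 CPM.

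C1QA, the complement gene, fell in FS animals at all 3 resuscitation timepoints, by less than MARCO. Its lowest, median and highest FS levels were 239.7, 328 and 517 CPM at Baseline (n = 15) and 182, 277 and 478 CPM at FR2 (n = 18). They were 179, 240.1 and 453 CPM at FR8 (n = 18) and 149.9, 235 and 361 CPM at FR20 (n = 18). The level was below the animal's own Baseline in 11 of 15 at FR2, in 13 of 15 at FR8 and in 15 of 15 at FR20, with ranges that overlapped between timepoints. The log2 fold change was −0.37 at FR2vB (SE 0.11, adjusted p = 0.00481), −0.46 at FR8vB (SE 0.11, adjusted p = 0.000791) and −0.60 at FR20vB (SE 0.11, adjusted p = 2.27e-05, edgeR quasi-likelihood test, Benjamini-Hochberg adjusted). The change passed in each of the 23 fits that left out 1 animal, at every one of these timepoints. The 3 changes were, in matched libraries, −0.28 (adjusted p = 0.0137), −0.64 (adjusted p = 5.35e-07) and −0.66 (adjusted p = 1.02e-06). From FR2 to FR8 it was higher in the 3 animals without a Baseline library used and lower in 12 of the other 15. The fitted FR8vFR2 change did not pass (−0.08, adjusted p = 0.586), nor did it with the animals that have a Baseline library alone (−0.23, adjusted p = 0.0776), and it passed in matched libraries (−0.36, adjusted p = 0.00274).

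**Figure D2:**
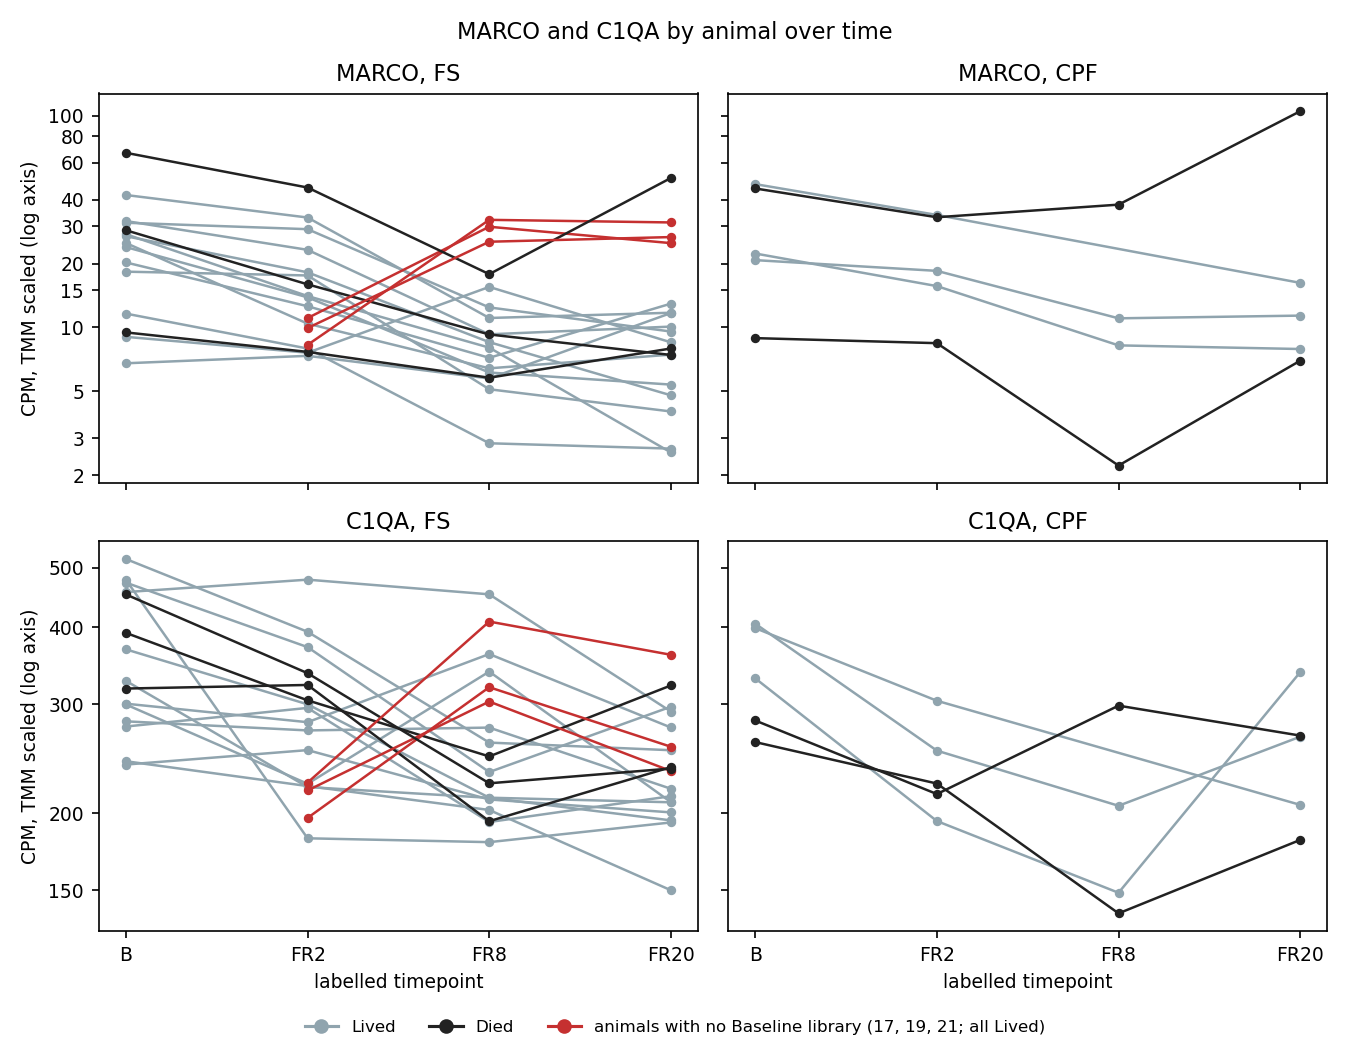
MARCO and C1QA in each animal over the labelled timepoints, in CPM after TMM scaling on a log axis, with FS animals on the left, CPF animals on the right, and a line for each animal (the line of CPF animal 3 spans its missing FR8 library). Most FS lines run down from Baseline to FR8, while those of FS animals 17, 19 and 21, which start at FR2, run up.

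CSF1R, the growth factor receptor, fell in FS animals at FR8 and FR20. Its lowest, median and highest FS levels were 15.2, 25.5 and 45.4 CPM at Baseline (n = 15) and 15.3, 21.5 and 36.6 CPM at FR2 (n = 18). They were 11.04, 20.5 and 37.7 CPM at FR8 (n = 18) and 11.2, 23.6 and 34.0 CPM at FR20 (n = 18). The ranges overlapped, and the level was below the animal's own Baseline in 12 of 15 at FR2, in 12 of 15 at FR8 and in 11 of 15 at FR20. The fitted log2 fold change was −0.30 at FR2vB (SE 0.13, adjusted p = 0.0542), −0.39 at FR8vB (SE 0.13, adjusted p = 0.0119) and −0.38 at FR20vB (SE 0.13, adjusted p = 0.016, edgeR quasi-likelihood test, Benjamini-Hochberg adjusted). The FR2vB change stood at the threshold, passing in 11 of 23 fits without 1 animal, and was −0.30 (adjusted p = 0.0455) with the animals that have a Baseline library alone. Animals 4, 5 and 6 were above their Baseline at FR2, animal 6 the furthest, with the lowest Baseline level (15.2 CPM) and the highest FR2 level (36.6 CPM). Without animal 6 the FR2vB change was −0.41 (adjusted p = 0.0064). The 3 changes of CSF1R in matched libraries were −0.31 (adjusted p = 0.0478), −0.49 (adjusted p = 0.00224) and −0.38 (adjusted p = 0.025).

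CD68, the lysosomal glycoprotein, was the one member that rose, and only its FR20 comparisons passed. Its lowest, median and highest FS levels were 28.9, 39.2 and 58.6 CPM at Baseline (n = 15) and 26.5, 39.3 and 83.5 CPM at FR2 (n = 18). They were 24.6, 37.8 and 70.0 CPM at FR8 (n = 18) and 28.0, 46.0 and 121 CPM at FR20 (n = 18). The groups overlapped, with FS animal 5 highest at FR20 and 12 of 15 animals above their own Baseline there, against 8 of 15 at FR2 and 7 of 15 at FR8. The log2 fold change was 0.08 at FR2vB (SE 0.14, adjusted p = 0.677), −0.01 at FR8vB (SE 0.14, adjusted p = 0.967) and 0.41 at FR20vB (SE 0.14, adjusted p = 0.0166, a 1.33-fold rise, edgeR quasi-likelihood test, Benjamini-Hochberg adjusted). The rise did not pass without FS animal 5 (0.30, adjusted p = 0.0728) or without FS animal 22 (0.34, adjusted p = 0.0554). The FR20vFR8 change was 0.42 (SE 0.13, adjusted p = 0.0368), in a comparison where 6.39% of the genes tested passed, and it passed in 15 of 23 fits without 1 animal. Matched libraries gave 0.44 (adjusted p = 0.00649) for FR20vB and, for FR20vFR8, 0.51 (adjusted p = 0.00274).

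In FS animals the members that passed an adjusted p of 0.05 were 2 of 4 at FR2vB, both lower, where 41.4% of the genes tested passed in either direction and 21.1% were lower. At FR8vB 3 of 4 were lower, against 39.3% of all genes in either direction and 19.5% lower. At FR20vB 3 were lower and 1 higher, against 33.8% in either direction, 16.4% lower and 17.4% higher. With a log2 fold change of at least 1 in size asked as well, no member passed at FR2vB, where 11% of the genes did, and MARCO alone passed at FR8vB and FR20vB, where 11.8% and 9.94% did. The median log2 fold change of the members was −0.34, −0.43 and −0.49 at FR2vB, FR8vB and FR20vB, beside −0.04, 0.00 and 0.04 over all genes tested. In matched libraries the shares of all genes passing in either direction were higher, at 52.3%, 54.2% and 43.8%.

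The size of the smaller changes, and for some their direction, depended on how libraries were scaled. With library totals alone in place of TMM, the median of all genes was 0.15, 0.25 and 0.45 at the 3 timepoints, and of the genes that passed at FR20vB 89.3% were higher, against 51.5% with TMM. On that scale CSF1R was at 0.04 (adjusted p = 0.847) at FR20vB, C1QA at −0.19 (adjusted p = 0.077) and MARCO at −0.89 (adjusted p = 0.000192), and CD68 was higher by 0.83 (adjusted p = 0.000124, edgeR quasi-likelihood test, Benjamini-Hochberg adjusted). By the same test C1QA did not pass at FR2vB (−0.19, adjusted p = 0.096) or FR8vB (−0.20, adjusted p = 0.067) either. Nor did CSF1R (−0.12, adjusted p = 0.587, and −0.14, adjusted p = 0.472). Relative to the median of all genes the members stood where they stood with TMM, MARCO at −1.34 on both scales, C1QA at −0.64 against −0.65, CSF1R at −0.41 against −0.42 and CD68 at 0.38 against 0.37. Scaling moves all genes of a library together, so this likeness was set in advance. It cannot tell which scale is right and does not restore the calls lost.

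**Figure D3:**
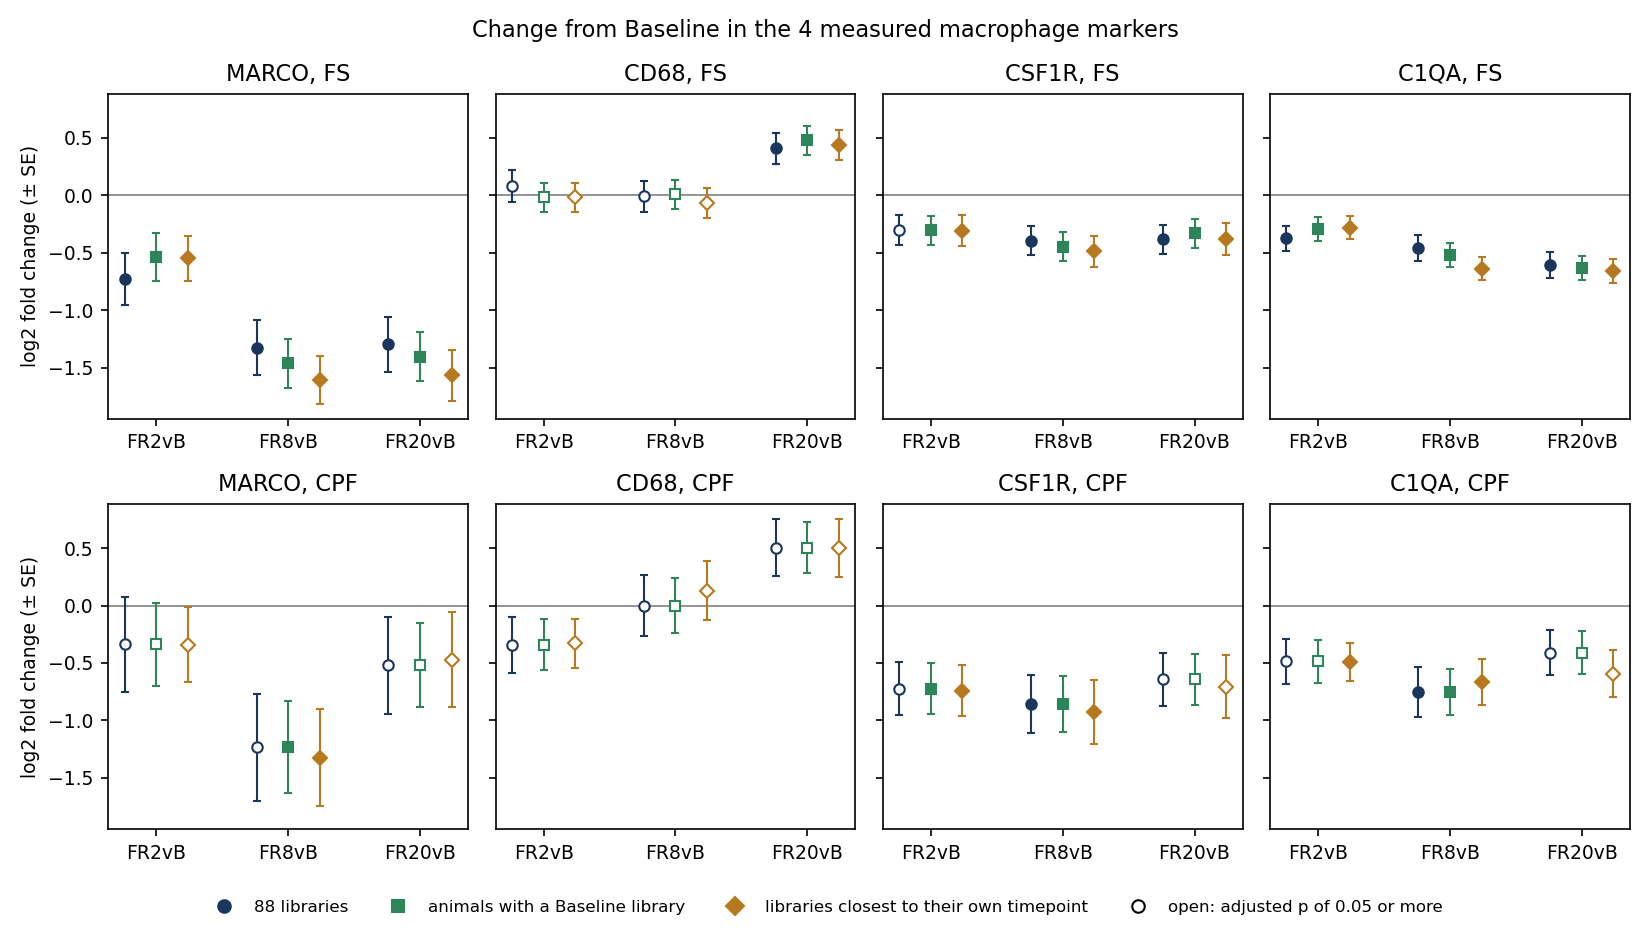
Fitted log2 fold changes of the 4 members from Baseline at FR2, FR8 and FR20, with FS and CPF animals side by side, bars of 1 SE and filled points where the adjusted p is under 0.05, from all 88 libraries (circles), from animals with a Baseline library (squares) and from libraries closest to their own timepoint (diamonds). MARCO, C1QA and CSF1R lie below 0 in FS animals throughout with TMM scaling. With library totals alone, which are not drawn, CSF1R at FR20 turns to 0.04.

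Markers of other cell types moved in the same libraries. At FS FR20vB, 16.4% of all genes passed as lower and 17.4% as higher. The summed level of 8 hepatocyte markers in FS animals was 78420, 209200 and 235100 CPM (lowest, median and highest) at Baseline and 19930, 49460 and 155500 CPM at FR20, with 4 of 8 passing as lower and 0 as higher there. ALB, the main plasma protein of hepatocytes, had a median of 141500 CPM at Baseline and 27890 CPM at FR20. Over the 88 libraries the log2 level of MARCO had a Pearson r of 0.53 with the log2 sum of these markers, C1QA 0.56, CSF1R 0.27 and CD68 −0.45, as a description of libraries that share animals, timepoints and scaling. With the mean of each fed group and timepoint removed these were 0.41, 0.43, 0.06 and −0.34. The libraries labelled FR8 of FS animals 17, 19 and 21, high for MARCO, held 204600, 191900 and 197900 CPM of these markers. The part of hepatocyte RNA in the members' changes was not tested.

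Among blood cell markers in FS animals, 5 monocyte genes were tested, and CD14, the co-receptor for bacterial endotoxin, fell at each timepoint (log2 fold change −0.43, −0.54 and −0.66) while VCAN rose at FR2 and FR20. Beside the counts below, 21.1%, 19.5% and 16.4% of all genes passed as lower at FR2, FR8 and FR20. As higher, 20.3%, 19.9% and 17.4% passed. The summed level of 4 neutrophil genes was 0.142, 1.68 and 14.1 CPM at Baseline and 2.14, 15.6 and 53.6 CPM at FR2, with 3 of 4 passing as higher at each of the 3 timepoints. The summed level of 6 T and NK cell genes was 30.5, 45.4 and 79.4 CPM at Baseline and 20.6, 32.1 and 60.5 CPM at FR20, and 4 of 6 passed as lower at FR8 and at FR20. Of 6 striated muscle genes 0 passed in FS animals at any of the 3 timepoints, and their sum reached 125 CPM in 1 library against medians of 1.83 to 3.18 CPM. The summed level of 4 B and plasma cell genes had a median of 9.58 CPM at Baseline and 4.501 CPM at FR20, with 3 of 4 passing as lower there, among them CD79B of the B cell receptor at −1.12 (adjusted p = 0.00493). Of 3 erythroid genes, 2 passed as lower at FR8 and at FR20, the globin gene HBB (−1.69 and −1.58) and ALAS2 of heme synthesis (−1.56 and −1.32). HBB was listed at 0 in the FR2 and FR8 libraries of FS animal 11 and stood at −1.45 (adjusted p = 0.00391) at FR8vB without that animal. The part of blood cells in the members' changes was not tested.

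Other cells of the liver's sinusoids and stroma moved as well. The summed level of 5 sinusoidal endothelium genes in FS animals had medians of 234.8, 227.8, 236.9 and 250.7 CPM at Baseline, FR2, FR8 and FR20, while its genes went both ways. STAB1, a scavenger receptor, fell at FR2vB by 0.97 (adjusted p = 6.53e-05), OIT3 fell at FR2vB and FR8vB (−0.85 and −0.82), and LYVE1, a hyaluronan receptor, rose at both (0.84 and 0.85). The summed level of 6 stellate cell and fibroblast genes had medians of 739, 397, 396 and 692 CPM, lower at FR2 and FR8 and close to Baseline at FR20. The collagen gene COL3A1 fell at FR2vB and FR8vB (−0.79 and −0.76), as did DCN (−0.68 and −1.07) and DES, which passed at FR20vB too (−0.43), and PDGFRB, a growth factor receptor, rose at FR2vB (0.62). Their part in the members' changes was not tested.

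In CPF animals MARCO, C1QA and CSF1R had negative fitted changes at every timepoint, and fewer passed than in FS animals. MARCO at Baseline was 47.5, 45.3, 8.89, 20.8 and 22.3 CPM in animals 3, 7, 8, 13 and 18. At FR2 it was 34.0, 33.1, 8.42, 18.5 and 15.7 CPM in the same order. At FR8, where animal 3 has no library, it was 38.0, 2.22, 11.03 and 8.22 CPM, and at FR20 16.2, 104.9, 6.96, 11.4 and 7.90 CPM in animals 3, 7, 8, 13 and 18. MARCO was below the animal's Baseline in 5 of 5 at FR2, 4 of 4 at FR8 and 4 of 5 at FR20, where animal 7 held the highest level of all 88 libraries. The log2 fold change was −0.34 at FR2vB (SE 0.41, adjusted p = 0.685), −1.24 at FR8vB (SE 0.47, adjusted p = 0.0627) and −0.52 at FR20vB (SE 0.43, adjusted p = 0.576), and without animal 7 it was −1.05 (adjusted p = 0.252) at FR20vB. The FR8vB change of MARCO passed with DESeq2 (adjusted p = 0.036), with edgeR's likelihood ratio test (0.0448) and with the animals that have a Baseline library alone (0.0237). The FR20 library of animal 8 and the FR8 and FR20 libraries of animal 13 were closest to another timepoint, and in matched libraries MARCO was at −1.33 (adjusted p = 0.018) for FR8vB and, for FR20vB, −0.47 (adjusted p = 0.546).

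C1QA in CPF animals fell at FR8. In animals 3, 7, 8, 13 and 18 it was 399, 283, 261, 331 and 406 CPM at Baseline and 304, 215, 223, 194 and 253 CPM at FR2. At FR8 it was 299, 138, 149 and 206 CPM in animals 7, 8, 13 and 18, and at FR20 206, 267, 181, 339 and 266 CPM in all 5. Animal 7 was above its Baseline at FR8 and animal 13 at FR20, and every other CPF value was below. The FR20 library of animal 13, which was closest to the Baseline profile, also held the most hepatocyte RNA of its group (251600 CPM over 8 markers, against 28150 to 50590 CPM in the other 4). The log2 fold change was −0.49 at FR2vB (adjusted p = 0.153), −0.75 at FR8vB (SE 0.22, adjusted p = 0.0169) and −0.41 at FR20vB (adjusted p = 0.287, edgeR quasi-likelihood test, Benjamini-Hochberg adjusted). Matched libraries gave −0.49 (adjusted p = 0.0355), −0.67 (adjusted p = 0.0138) and −0.59 (adjusted p = 0.0524).

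CSF1R in CPF animals likewise passed at FR8 alone. In animals 3, 7, 8, 13 and 18 it was 28.6, 21.1, 30.2, 32.5 and 27.3 CPM at Baseline and 15.5, 21.1, 20.2, 13.97 and 12.9 CPM at FR2. At FR8 it was 15.1, 20.8, 17.5 and 9.35 CPM in animals 7, 8, 13 and 18, and at FR20 17.4, 10.3, 14.9, 27.6 and 19.9 CPM in all 5. Apart from animal 7 at FR2, whose level was its Baseline level within 0.0003 on the log2 scale, all CPF animals were below their Baseline at each timepoint. The log2 fold change was −0.72 at FR2vB (SE 0.23, adjusted p = 0.0618), −0.86 at FR8vB (SE 0.25, adjusted p = 0.018) and −0.64 at FR20vB (SE 0.23, adjusted p = 0.145, edgeR quasi-likelihood test, Benjamini-Hochberg adjusted). Matched libraries gave −0.74 (adjusted p = 0.0204), −0.93 (adjusted p = 0.0127) and −0.71 (adjusted p = 0.0978).

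CD68 in CPF animals changed in no comparison that passed. In animals 3, 7, 8, 13 and 18 it was 50.0, 29.1, 36.2, 35.6 and 37.1 CPM at Baseline and 42.6, 23.7, 36.4, 24.02 and 25.1 CPM at FR2. At FR8 it was 36.4, 52.8, 26.1 and 31.2 CPM in animals 7, 8, 13 and 18, and at FR20 48.2, 43.4, 85.1, 33.9 and 63.5 CPM in all 5. Animals 7, 8 and 18 were above their Baseline at FR20 and animals 3 and 13 below. The log2 fold change at FR20vB was 0.51 (SE 0.24, adjusted p = 0.286), and 0.50 (adjusted p = 0.225) in matched libraries.

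In CPF animals 0 of 4 members passed at FR2vB and FR20vB, where 3.41% and 0.893% of the genes tested did, and 2 of 4 passed at FR8vB, both lower, against 13.3% in either direction and 6.99% lower. Matched libraries raised the shares of all genes passing to 14.2% at FR2vB, 21.9% at FR8vB and 9.32% at FR20vB. By edgeR's quasi-likelihood test, 2 members at FR2vB and 3 at FR20vB had an unadjusted p under 0.05. The shares of all genes under that rule were 20% and 16.5%. DESeq2 and the likelihood ratio test passed 1 at FR2vB (CSF1R) and 0 at FR20vB, and their shares of all genes are not given here. The FR8vB calls rested on 4 animals. Without CPF animal 8 the C1QA change was −0.71 (adjusted p = 0.0666), without animal 13 neither C1QA (−0.63, adjusted p = 0.0918) nor CSF1R (−0.84, adjusted p = 0.0558) passed, and without animal 18 neither did (−0.71, adjusted p = 0.0938, and −0.68, adjusted p = 0.142). Between FR2 and FR8 and between FR8 and FR20 in CPF animals, 0 of 4 passed by each of the 3 tests and 0 had an unadjusted p under 0.05. By edgeR's quasi-likelihood test 7.21% and 0.022% of all genes passed.

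The study asked whether the fed state alters the response, and no member passed a test of a difference between the fed groups. The study itself reported genes that differed between the fed groups, at Baseline and in each later change. It used an older edgeR with tag-wise dispersions and names only a failed FR8 library as omitted, so its libraries and test differ from those here. For the change from Baseline in CPF minus that in FS animals, 0 of 4 members passed at any timepoint, 0 had an unadjusted p under 0.05, and DESeq2 and the likelihood ratio test passed 0. By edgeR's quasi-likelihood test 0% of all genes passed. Among all 13667 genes, 397, 468 and 521 had an unadjusted p under 0.05 at FR2vB, FR8vB and FR20vB. The difference of MARCO at FR20vB was 0.78 (SE 0.49) and that of CSF1R at FR8vB −0.46 (SE 0.28), both with an adjusted p of 1.00. In matched libraries these were 1.10 (SE 0.46) and −0.44 (SE 0.31), and 0 of 4 members passed at each timepoint.

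Within single timepoints 0 of 4 members passed between CPF and FS animals by edgeR's quasi-likelihood test, DESeq2 or the likelihood ratio test. By the quasi-likelihood test 0.0342% of genes passed at Baseline and 0% at FR2, FR8 and FR20. At Baseline the differences ran from −0.10 to 0.21. At FR2, 2 members had an unadjusted p under 0.05, CSF1R at −0.44 (SE 0.17, adjusted p = 0.872) and CD68 at −0.49 (SE 0.20, adjusted p = 0.879). Of all genes 5.58% had an unadjusted p under 0.05 there. The 5 CPF levels of CSF1R at FR2, 12.9 to 21.1 CPM, all lay below the FS median of 21.5 CPM. MARCO at FR20 was higher in CPF animals by 1.13 (SE 0.58, adjusted p = 1.00) and stood at −0.34 without CPF animal 7, so the sign rested on that animal. In matched libraries, which keep CPF animals 3, 7 and 18 at FR20, it was 2.59 (SE 0.47, adjusted p = 0.107). In that selection MARCO was at 1.00 (adjusted p = 0.675) at FR8, against 0.28 with all libraries, CSF1R at FR2 at −0.50 (adjusted p = 0.576) and CD68 at FR2 at −0.40 (adjusted p = 0.692), and 0 of 4 members passed at any timepoint.

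Animals labelled Died were compared with those labelled Lived with a term for the fed group. MARCO at FR20 was 7.41, 7.95 and 50.8 CPM in FS animals 2, 16 and 20 and 104.9 and 6.96 CPM in CPF animals 7 and 8, against 2.56, 9.82 and 31.3 CPM (lowest, median and highest) in 18 animals that lived. Animals 7 and 20 lay above all that lived and the other 3 below their median. The log2 difference was 1.39 (SE 0.58, unadjusted p = 0.026, adjusted p = 0.904, edgeR quasi-likelihood test, Benjamini-Hochberg adjusted), 0.63 without CPF animal 7 and 0.82 without FS animal 20. It was 1.21 (adjusted p = 0.675) in matched libraries, which leave out CPF animal 8 and FS animal 20 at FR20. At Baseline animals 7 and 20 already held 45.3 and 66.7 CPM of MARCO, and the FS animals that died spanned 9.46 to 66.7 CPM.

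CSF1R at FR20 was 16.2, 25.0 and 14.7 CPM in FS animals 2, 16 and 20 and 10.3 and 14.9 CPM in CPF animals 7 and 8, against 11.2, 23.6 and 34.0 CPM in animals that lived, a log2 difference of −0.44 (SE 0.21, adjusted p = 0.904), or −0.39 (adjusted p = 0.682) in matched libraries. The level of animal 16 was above the median of those that lived and the other 4 were below it. Over the 4 timepoints 0 of 4 members passed by any of the 3 tests, with 1 (MARCO at FR20) at an unadjusted p under 0.05. By edgeR's quasi-likelihood test 0% of all genes passed at each timepoint, with 998, 656, 265 and 642 genes at an unadjusted p under 0.05 at B, FR2, FR8 and FR20.

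A list of 27 other macrophage symbols was followed in FS animals, of which 17 matched a single row and 16 were tested (SPI1, with 2 rows, was left out). From Baseline to FR2, 2 passed as higher and 4 as lower, to FR8 2 and 4, and to FR20 4 and 1. These 6, 6 and 5 of 16 are close to the shares of all genes that passed, 41.4%, 39.3% and 33.8%. Matched libraries, in which 15 were tested, gave 2 higher and 5 lower, 3 and 5, and 4 and 1, where 52.3%, 54.2% and 43.8% of all genes passed. With library totals alone the split was 2 and 2, 3 and 1, and 9 and 0, where 38.8%, 44% and 53.7% of all genes passed. On that scale the median of the list at FR20vB was 0.50, beside 0.45 over all genes. SIGLEC1, a sialic acid receptor of tissue macrophages, fell the most of those that passed, by 1.10 (SE 0.25, adjusted p = 0.000363), 1.24 (SE 0.27, adjusted p = 0.000197) and 0.95 (SE 0.25, adjusted p = 0.00232) on the log2 scale at FR2vB, FR8vB and FR20vB. Its FR8vB change was −1.89 in matched libraries, and its FR20vB change did not pass with library totals alone (−0.50, adjusted p = 0.0635). At FR2vB the lowest value was that of SPIC, a transcription factor of iron-recycling macrophages, at −1.49 (SE 0.67, adjusted p = 0.0656), which passed in matched libraries (−1.79, adjusted p = 0.0203). MSR1, a scavenger receptor of the same class as MARCO, rose by 0.84 (SE 0.15, adjusted p = 9.43e-06), 0.44 (SE 0.15, adjusted p = 0.0145) and 0.91 (SE 0.15, adjusted p = 3.37e-06), and it had the highest log2 fold change of the list at FR2vB and FR20vB. At FR8vB the highest was that of IL18, a cytokine of macrophages, at 0.57 (adjusted p = 0.123, edgeR quasi-likelihood test, Benjamini-Hochberg adjusted), which was listed at 0 in the FR2 and FR8 libraries of animal 11 and stood at 0.79 (adjusted p = 0.0016) without that animal.

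The remaining members of this list that passed as lower were CTSS, a lysosomal protease, and TIMD4, a receptor for dying cells on Kupffer cells, at FR2vB and FR8vB, MRC1, the mannose receptor, at FR2vB and LGMN at FR8vB. Those that passed as higher were CD86 at FR2vB, NR1H3 at FR8vB and FR20vB, and IL18 and MERTK at FR20vB. Without FS animal 11, FOLR2, a folate receptor of resident macrophages listed at 0 in its FR2 and FR8 libraries, passed as lower at each timepoint (−0.54, −0.45 and −0.41), SPIC passed as lower at FR2vB (adjusted p = 0.0456), and MERTK (adjusted p = 0.0713) and LGMN (adjusted p = 0.0847) no longer passed. The median of the list was −0.15, −0.21 and 0.08 beside −0.04, 0.00 and 0.04 over all genes. In CPF animals 0 of 16 passed at FR2vB, 1 was higher and 2 lower at FR8vB, and 1 was higher at FR20vB. Of all genes 3.41%, 13.3% and 0.893% passed in these comparisons.

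Ligands and partners of the members were tested for 5 of 9 symbols. SERPING1, the inhibitor of the C1 complex that C1q belongs to, fell by 0.24 (SE 0.09, adjusted p = 0.0287), 0.39 (SE 0.09, adjusted p = 0.000707) and 0.56 (SE 0.09, adjusted p = 4.2e-06) on the log2 scale at FR2vB, FR8vB and FR20vB in FS animals. With library totals alone it was at −0.07, −0.13 and −0.15, of which the last passed (adjusted p = 0.0475). CALR, a chaperone that also binds C1q at the surface of dying cells, rose at FR8vB by 1.17 (SE 0.23, adjusted p = 5.07e-05, edgeR quasi-likelihood test, Benjamini-Hochberg adjusted). IL34, the ligand of CSF1R, had values of −0.69 (SE 0.53), 0.35 (SE 0.48) and 0.20 (SE 0.47), none of which passed, nor did C3 or CD93. In matched libraries CALR also passed at FR20vB (0.60, adjusted p = 0.000373) and CD93 at FR8vB (−0.32, adjusted p = 0.0149).

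The members did not move as one across libraries. Over the 88 libraries the Pearson r of log2 CPM was 0.46 between MARCO and C1QA, 0.43 between CSF1R and C1QA and 0.34 between CD68 and CSF1R, and it was −0.27 between MARCO and CD68, −0.10 between MARCO and CSF1R and 0.10 between CD68 and C1QA. These are descriptions of libraries that share animals, timepoints and scaling. With the mean of each fed group and timepoint removed, MARCO and C1QA were at 0.37, CSF1R and C1QA at 0.22, CD68 and CSF1R at 0.46, MARCO and CD68 at −0.23, MARCO and CSF1R at −0.30 and CD68 and C1QA at 0.21.

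Among 9681 genes with a symbol, those most like the mean of the 4 standardized members over the 88 libraries were CTSS (r = 0.76), GM2A, a lysosomal lipid-binding protein (0.75), SLA-DMB, a chaperone of class II antigen loading (0.73), CD4 (0.73), ICAM3 (0.71), NAAA (0.69), CORO7 (0.69), CD2 (0.67), GIMAP6 (0.67) and TRBC2 (0.67). With the group and timepoint means removed, the 10 were CTSS (0.74), GM2A (0.68), CD4 (0.66), ICAM3 (0.65), SLA-DMB (0.62), CCL5 (0.62), NKG7 (0.61), ITGB2 (0.60), RAC2 (0.59) and GIMAP6 (0.58). CD2, CD4, NKG7 and TRBC2 are genes of T or NK cells. Taken singly, the members differed in their nearest genes. MARCO was closest to HSD17B8 (0.74), AGT (0.74) and C8G (0.73), of which AGT and C8G encode plasma proteins made by hepatocytes. CD68 was closest to GRN (0.83), the lysosomal progranulin gene, CSF1R to CD4 (0.70) and C1QA to TRBC2 (0.77).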

How the data were processed

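The authors sequenced liver RNA as single reads, aligned them with TopHat 1.5.0 to Sscrofa10.2, sorted them with SAMtools and counted reads per pig Ensembl gene with HTSeq. The deposited table holds these raw counts for 92 libraries, not normalized and not pooled. Symbols came from a gene name table (11804) and the study's tables (680). The members and gene lists were chosen with earlier results of these data known.

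Counts were tested with edgeR 4.0.16 in R 4.3.3 (quasi-likelihood F test, 2-sided, TMM scaling, CPM summing to 10 or more, Benjamini-Hochberg adjustment within a comparison, threshold 0.05). Changes were fitted on 88 libraries, with animal terms and with FR2, FR8 and FR20 terms for each fed group. Fed groups and survival labels were compared within timepoints. The SE is the log2 fold change divided by the square root of F. Fits without 1 animal kept the dispersion trend of the full fit. The fits were also run on simulated counts that held no animal effects, no libraries under another timepoint's label and no shift in cell make-up, so these features were not tested there. Log2 CPM used a prior count of 2.

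Animals were numbered 1 to 23 in the order of their titles, and each number marks libraries of the same animal. The residuals of 2 libraries correlated with a median r of 0.21 within an animal (over 0.1 in 84 of 126 pairs) and of −0.01 between animals (550 of 1791), so the animal terms were kept, as in the study. No sequencing batch is given in the sources used here. Whether reads were counted by strand is not given there either, so reads of overlapping genes cannot be told apart.

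Genes named beyond the members are the listed genes with the highest and lowest log2 fold change or an adjusted p under the threshold, defining markers, and the 10 genes most like the members. One gene of the macrophage list is not reported here. FOLR2 and SPIC were named after their values were seen. Alternatives were another scaling, other filters, DESeq2 1.42.0, the likelihood ratio test, a muscle covariate, no animal terms, the fed group alone, the Baseline libraries kept, and animals left out in turn. Those limited to animals with a Baseline library or to libraries closest to their own timepoint, and all those for the gene lists, were chosen after seeing the data. Sequences and gene positions were not used here.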

Additional observations from a re-analysis of the deposited data

Results flagged for a closer look

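Dixon's test was run on 32 groups of 4 to 10 libraries, and 2 held a library far from the others, where chance gives about 1 in 20. CD68 at FR20 in CPF animal 8 was 85.1 CPM, against 42.3 to 46.3 CPM in the other 4 animals that died. CSF1R at FR2 in FS animal 16 was 23.7 CPM, against 20.2 to 21.1 CPM in the other 4 animals that died. The FR20 library of CPF animal 8 was closest to the FR8 profile, and MARCO was at 6.96 CPM in it.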

How the results depend on the processing

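Counts below are members of 4 that passed an adjusted p of 0.05, with the reported count in brackets. With a log2 fold change of at least 1 in size asked as well, 0 passed at FS FR2vB (2), 1 at FR8vB (3), 1 at FR20vB (4), 0 at FR8vFR2 (1), 0 at FR20vFR8 (1) and 0 at CPF FR8vB (2). In the same order 11%, 11.8%, 9.94%, 5.96%, 1.46% and 8.84% of all genes passed that rule. With library totals alone the counts were 1, 1, 2 and 0 at FS FR2vB, FR8vB, FR20vB and FR8vFR2 and 0 at CPF FR8vB, and CSF1R at FS FR20vB turned to 0.0375. The shares of all genes on that scale were 38.8%, 44% and 53.7% at the FS changes from Baseline and 15% at CPF FR8vB. With the 3 Baseline libraries without albumin kept the counts were 0, 1, 2, 0 and 0 at FS FR2vB, FR8vB, FR20vB, FR8vFR2 and FR20vFR8 and 0 at CPF FR8vB. DESeq2, the likelihood ratio test and the animals with a Baseline library alone gave 1 at CPF FR2vB (0), and libraries closest to their own timepoint alone gave 2 there and 2 at FS FR8vFR2. DESeq2 and the likelihood ratio test also gave 3 at CPF FR8vB, and DESeq2 gave 3 at FS FR2vB. With either selection of animals or libraries, MARCO passed at CPF FR8vB and CSF1R at FS FR2vB as well. Of these alternatives, shares of all genes are given above for matched libraries only. The striated muscle sum as a covariate gave 0 at FS FR8vFR2. Without the replicate block (no animal terms), 0 passed at FS FR8vFR2, where MARCO was −0.43 (adjusted p = 0.391), MARCO at FS FR2vB was −0.63 (adjusted p = 0.161), and CSF1R passed there (adjusted p = 0.0348).

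Without 1 animal each, counts ran from 0 to 1 at FS FR8vFR2, FS FR20vFR8 and CPF FR2vB and from 0 to 2 at CPF FR8vB. Single values without 1 animal kept their side of the threshold in 1362 of their cases, and 27 lost and 15 gained the call. Under the other alternatives 984 kept it, 31 lost it, 16 gained it and 1 that had passed changed sign. With values that passed neither way counted too, 43 of 1032 changed sign, 8 of 84 with library totals alone and 11 of 84 with the 3 Baseline libraries kept. MARCO at FS FR8vB and FR20vB and CD68 at FS FR20vB passed under every alternative run for these changes. Fits without 1 animal, some of which took the CD68 call away, and the added fold change rule, which CD68 did not meet, are left aside here. The cause of these changes was not tested. Values near the floor do not arise for the members, whose lowest count was 35.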
